A study of Mus musculus with 6 samples.

Results

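Class I molecules of the major histocompatibility complex (MHC) were followed through 10 genes: the heavy chain genes H2-K1, H2-D1, H2-Q4, H2-T22 and H2-T23, the light chain gene B2m, the peptide transporter genes Tap1 and Tap2, the loading factor gene Tapbp, and Nlrc5, the transcriptional activator of class I genes. They were chosen by gene symbol, with earlier results of these data known. All 10 were found among the 40213 genes of the deposited count tables. The cells were mouse bone marrow-derived macrophages. Marrow cells flushed from the leg bones of C57BL/6 mice were grown for 4 days in 10% serum with 25 ng/ml macrophage colony-stimulating factor, and 3 samples were then left untreated (control) while 3 received 50 µg of polystyrene micro- and nanoplastics (MNP) for 24 h. The labels name no genetic change in either group and do not say whether the 3 samples of a group came from separate animals or cultures, so each p-value measures the spread between these samples, which may be technical.

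A class I molecule is a heavy chain paired with beta-2 microglobulin, the product of B2m, around a short peptide. Peptides cut from cytosolic proteins by the proteasome are pumped into the endoplasmic reticulum by the transporter made of Tap1 and Tap2, and tapasin, the product of Tapbp, bridges that transporter to the empty heavy chain and edits the peptide. H2-K1 and H2-D1 encode the classical heavy chains that display peptides to CD8 T cells, whereas H2-Q4, H2-T22 and H2-T23 encode nonclassical ones. Nlrc5 has no DNA-binding domain of its own and acts through factors on a composite promoter element (the SXY module), and interferons and NF-kB act through separate elements upstream of it.

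The upstream elements are shown first because several members carry near-identical ones. RefSeq promoter windows of build GRCm38.p6, which run from 250 bases before to 50 bases after a gene's start, were on hand for 8 members, all but Tap2 and Nlrc5. For H2-K1, with more than 1 listed start, the start farther downstream was used. This build is older than the GRCm39 named in the submitters' processing notes, and the coordinates belong to the older build alone. Each stretch of 150 bases below is written 5′ to 3′ in the direction of the gene. Capitals mark matches, on either strand, to the kappa B element of the class I enhancer (GGGG, ATT and CCCC joined) or its form in H2-Q4 (GGGGATTTCCC), to interferon response elements (GAAA, any 2 bases, GAAA, or AGTTTCACTT, which overlap in H2-T22), to TGACG (letters of the X2 part of the SXY module) and to CCAAT (letters of its Y box), wherever they lie. AGTTTCACTT and GGGGATTTCCC were added after the sequences had been read. The first was taken from the H2-K1 window and the second from that of H2-Q4, so their presence there was fixed in advance. The H2-K1 stretch is chr17:34000334-34000483, minus strand, that of H2-D1 is chr17:35262904-35263053, plus strand, that of H2-Q4 is chr17:35379424-35379573, plus strand, that of H2-T22 is chr17:36042801-36042950, minus strand, that of H2-T23 is chr17:36032712-36032861, minus strand, and that of B2m is chr2:122147527-122147676, plus strand.
H2-K1: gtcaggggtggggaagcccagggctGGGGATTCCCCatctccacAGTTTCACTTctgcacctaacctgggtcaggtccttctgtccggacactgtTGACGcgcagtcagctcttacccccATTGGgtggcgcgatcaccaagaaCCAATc
H2-D1: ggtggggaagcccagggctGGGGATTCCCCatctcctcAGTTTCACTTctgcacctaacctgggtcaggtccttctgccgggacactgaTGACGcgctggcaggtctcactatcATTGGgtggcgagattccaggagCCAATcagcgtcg
H2-Q4: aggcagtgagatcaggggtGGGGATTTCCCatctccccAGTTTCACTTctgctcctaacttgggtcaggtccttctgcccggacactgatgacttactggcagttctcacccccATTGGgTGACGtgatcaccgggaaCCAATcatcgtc
H2-T22: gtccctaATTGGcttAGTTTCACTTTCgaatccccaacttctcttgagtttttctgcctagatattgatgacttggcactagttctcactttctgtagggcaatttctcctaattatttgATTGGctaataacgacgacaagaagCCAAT
H2-T23: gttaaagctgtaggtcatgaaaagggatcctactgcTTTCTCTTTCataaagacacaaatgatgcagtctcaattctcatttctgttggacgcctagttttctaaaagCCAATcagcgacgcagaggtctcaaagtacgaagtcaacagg
B2m: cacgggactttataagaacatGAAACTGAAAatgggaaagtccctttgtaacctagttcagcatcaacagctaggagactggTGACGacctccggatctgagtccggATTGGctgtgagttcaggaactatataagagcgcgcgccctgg

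H2-K1 and H2-D1 held the same kappa B letters, which 10 of all 32851 promoter windows (0.0304%) contained, and both held AGTTTCACTT, found in 46 windows (0.14%), among them also those of H2-Q4 and H2-T22. Aligned without gaps from the first base of the kappa B element, the next 100 bases were identical at 89 positions between H2-K1 and H2-D1, at 87 between H2-K1 and H2-Q4 and at 88 between H2-D1 and H2-Q4. The paired GAAA element, present in 3.44% of all windows, was found in H2-T22, H2-T23 and B2m. TGACG was found in 6 of the 8 windows against 20.8% of all windows, and CCAAT in all 8 against 37.4%. The X2 part lies upstream of the Y box in the module, and TGACG stood upstream of ATTGG in H2-K1, H2-D1 and B2m. In H2-Q4 it stood downstream of the first ATTGG (at -73 against -79 from the start) but upstream of CCAAT at -55. In H2-T22 it stood at -22, downstream of every CCAAT and outside the stretch shown. In Tap1 it stood at -86, downstream of CCAAT at -222. The matches of H2-T22 and Tap1 thus do not have the order of the module, and that of H2-Q4 has it only relative to CCAAT at -55. Near matches to these letters were not searched for. These are matches of letters, and none of them was tested as a binding site.

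The macrophage label matched the levels of Csf1r, Adgre1, Itgam and Lyz2, which were high in each library, and libraries held 20262859 to 23042146 counts. Genes with a count numbered 24062, 20935 and 20222 in controls 1 to 3 and 18672, 18655 and 18240 in MNP samples 1 to 3. The cause of this difference between the groups was not tested. Levels are given as CPM, counts at a common library size, scaled with edgeR's TMM factors (scaled CPM), at which 1 count was worth 0.0424 to 0.0483. The TMM factors were 1.03, 1.04 and 1.02 in controls 1 to 3 and 0.973, 0.978 and 0.958 in MNP samples 1 to 3. Every member passed the expression filter, with at least 196 counts in each library. Calls were made at an adjusted p under 0.05 in edgeR's quasi-likelihood test over 12893 genes, and fold changes are MNP against control as log2 ± standard error (SE).

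After MNP, 7 of the 10 genes were lower: Nlrc5, Tap1, Tapbp and the heavy chains H2-K1, H2-Q4, H2-T22 and H2-T23. In the same test 8.35% of all tested genes were called lower and 9.11% higher. Scaled by library totals alone, 1941 genes were called lower and 757 higher, against 1076 and 1174 with TMM, and the same number of members, 7, was called lower. None of the 10 was called higher by edgeR, DESeq2 or limma-voom, and 0 were higher at an unadjusted p under 0.05 in edgeR. The median log2 fold change of the 10 was -0.38, against -0.01 over all tested genes, and 0 of the 10 fell by 2-fold or more. The groups did not overlap for 7 members, lower in MNP, as held for 17.4% of all tested genes. H2-D1, B2m and Tap2 were not called. In bulk RNA, fewer expressing cells and less RNA per cell cannot be told apart.

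**Figure D1:**
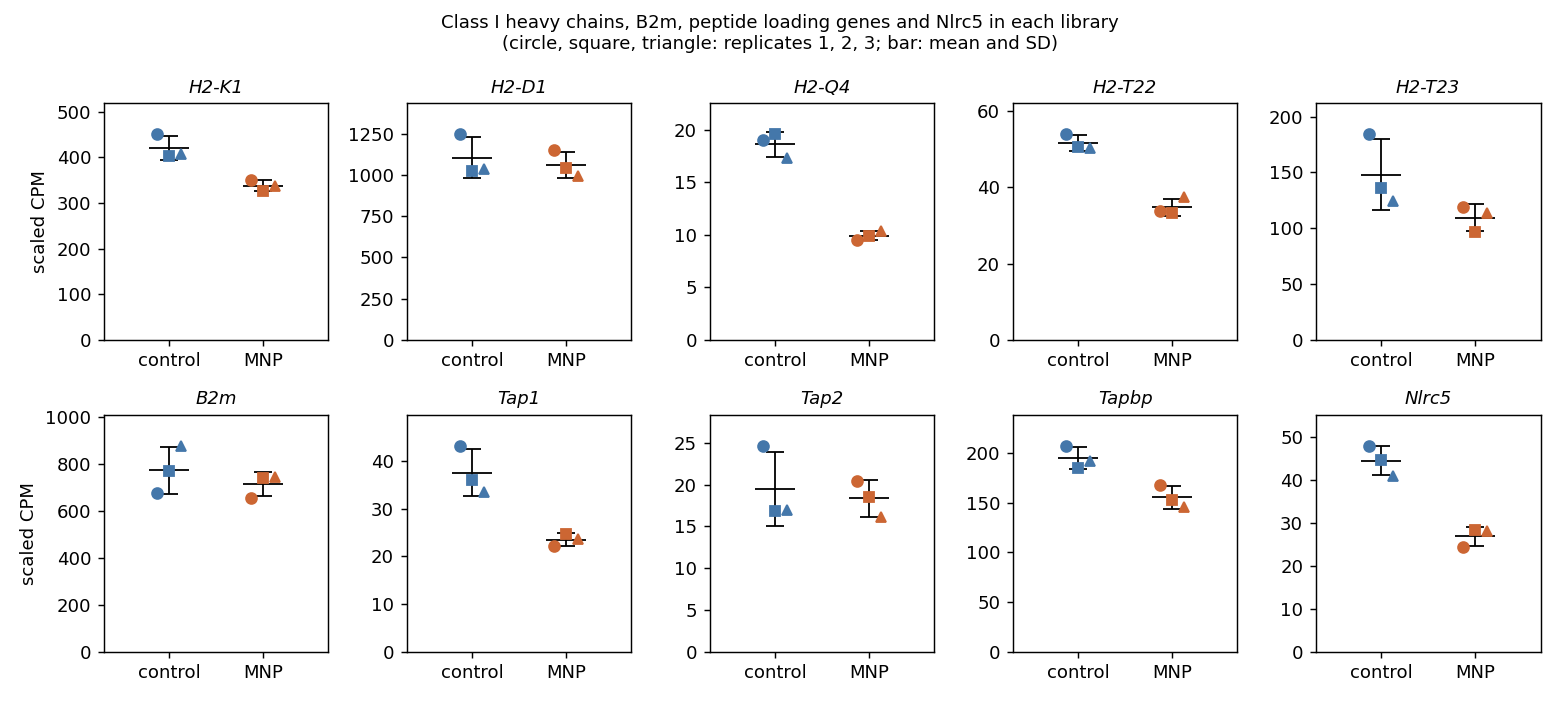
Scaled CPM of each of the 10 genes (linear axes from 0) in the 3 control and 3 MNP libraries; symbols stand for replicates 1 to 3 and bars for mean and SD. The groups are separate for H2-K1, H2-Q4, H2-T22, H2-T23, Tap1, Tapbp and Nlrc5 and overlap for H2-D1, B2m and Tap2.

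Nlrc5, the activator, measured 47.8, 44.6 and 40.9 scaled CPM in controls 1 to 3 and 24.3, 28.3 and 28.1 in MNP samples 1 to 3. Every MNP value lay well under the lowest control value. The mean fell from 44.5 ± 3.45 to 26.9 ± 2.23 (SD, n = 3), a log2 fold change of -0.72 ± 0.09 (1.65-fold lower, edgeR adjusted p = 7.59e-05). Of the tested genes, 6.05% had a lower fold change than Nlrc5.

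Among the heavy chains, the classical pair came apart. H2-K1 measured 451, 404 and 408 scaled CPM in controls and 350, 326 and 337 in MNP samples, so that the highest MNP value was under the lowest control. Its log2 fold change was -0.32 ± 0.06 (1.25-fold lower, edgeR adjusted p = 0.00235). H2-D1 measured 1246, 1026 and 1035 in controls and 1149, 1039 and 993 in MNP samples. These ranges overlapped widely, with control 1 the highest of the 6 libraries and MNP 1 the next. The log2 fold change of H2-D1 was -0.06 ± 0.08 (edgeR adjusted p = 0.691), and its 95% interval ran from -0.23 to 0.12, which leaves room for a small change in either direction. The interval of H2-K1, -0.45 to -0.19, overlapped it slightly.

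H2-Q4 had the largest fold change of the 10 genes. It measured 19.0, 19.6 and 17.3 scaled CPM in controls and 9.47, 9.92 and 10.3 in MNP samples (log2 -0.91 ± 0.10, 1.88-fold lower, edgeR adjusted p = 3.92e-05). H2-T22, whose product is recognised by some gamma delta T cells, measured 53.9, 50.5 and 50.4 in controls and 33.8, 33.2 and 37.3 in MNP samples (log2 -0.57 ± 0.08, edgeR adjusted p = 0.000158). Both genes kept a wide gap between the groups. H2-T23 encodes a nonclassical molecule that presents peptides of signal sequences to receptors of natural killer cells. It measured 184, 136 and 124 in controls and 119, 96.2 and 114 in MNP samples. Control 1 stood high and the gap between control 3 and MNP 1 was narrow. Its log2 fold change was -0.43 ± 0.12 (edgeR adjusted p = 0.0252), and the call was lost with DESeq2 (adjusted p = 0.129), without MNP 2 (0.137) and without MNP 3 (0.0774). Without control 1 the fold change of H2-T23 was -0.24.

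B2m, the shared light chain, measured 674, 769 and 875 scaled CPM in controls and 653, 740 and 744 in MNP samples. The groups overlapped, and control 1, which was highest for H2-D1 and H2-T23, was the lowest control for B2m. The log2 fold change was -0.12 ± 0.09 (95% interval -0.30 to 0.07, edgeR adjusted p = 0.39).

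The transporter subunits also differed in outcome. Tap1 measured 43.1, 36.0 and 33.5 scaled CPM in controls and 22.1, 24.8 and 23.5 in MNP samples, with a clear gap between the groups (log2 -0.68 ± 0.10, 1.60-fold lower, edgeR adjusted p = 0.000372). Tap2 measured 24.6, 16.9 and 17.0 in controls and 20.5, 18.6 and 16.1 in MNP samples. Apart from control 1, the Tap2 values of the groups were interleaved (log2 -0.08 ± 0.15, edgeR adjusted p = 0.752). The 95% intervals of Tap1 (-0.89 to -0.46) and Tap2 (-0.40 to 0.23) did not overlap. Tapbp, encoding tapasin, measured 207, 185 and 192 in controls and 168, 153 and 146 in MNP samples (log2 -0.33 ± 0.07, 1.25-fold lower, edgeR adjusted p = 0.00378).

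**Figure D2:**
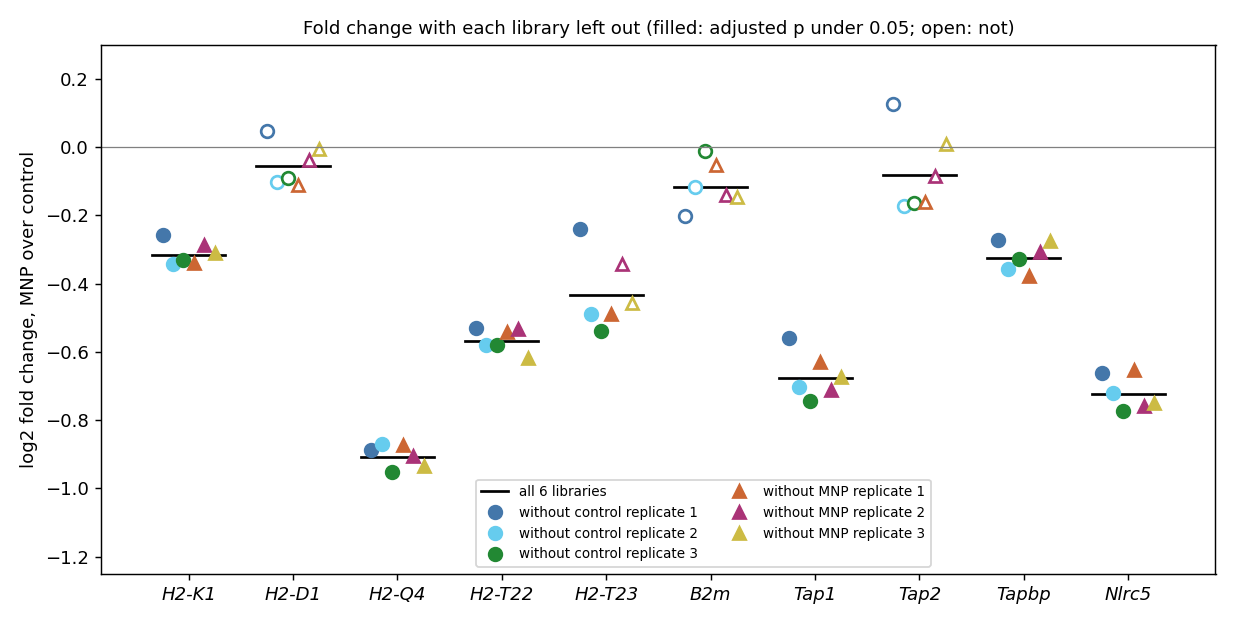
Log2 fold change (vertical axis, MNP over control) of each gene with all 6 libraries (line) and with each library left out in turn (points, filled where the adjusted p was under 0.05). H2-K1, H2-Q4, H2-T22, Tap1, Tapbp and Nlrc5 stay filled in all 6 cases, H2-T23 is open without MNP 2 and without MNP 3, and H2-D1 and Tap2 cross 0.

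Divided by exon length (GENCODE M21, all exons of a gene merged), levels in controls were highest for B2m at 898 ± 117 scaled CPM per kilobase (SD, n = 3), followed by H2-D1 at 427 ± 48.2 and H2-K1 at 143 ± 8.86. Tapbp (53.7 ± 3.04) and H2-T23 (51.2 ± 11) did not differ beyond their spread, and H2-T22 followed at 15.1 ± 0.59. The least abundant 4 per kilobase were H2-Q4 (7.17 ± 0.452), Tap1 (6.85 ± 0.908), Nlrc5 (5.23 ± 0.407) and Tap2 (5.16 ± 1.18), among which H2-Q4 and Tap1 and then Nlrc5 and Tap2 overlapped. In MNP samples the first 6 kept this order of level per kilobase, from B2m at 828 ± 59.5 to H2-T22 at 10.2 ± 0.651, and below them came Tap2 (4.86 ± 0.582), Tap1 (4.28 ± 0.244), H2-Q4 (3.82 ± 0.164) and Nlrc5 (3.16 ± 0.262). Tap2 and Tap1 overlapped there, with Tap2 under Tap1 in MNP 3.

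Heavy chain genes resemble each other, so how shared reads were assigned could move counts between them. Of the 75-base stretches in the coding transcripts of H2-T22, 24.6% also occur in transcripts of another gene, most of all H2-T10. This share was 13.1% for H2-T23, 7.91% for H2-Q4, 6.15% for H2-D1 and 1.12% for H2-K1, 1.36% for Tapbp and 0 for B2m, Tap1, Tap2 and Nlrc5. The read length is not given in the sources used here, and shorter stretches are shared more often. Of 31-base stretches, 62.1% were shared for H2-T22, 48.4% for H2-T23, 43.5% for H2-Q4, 27.7% for H2-D1 and 20.3% for H2-K1. At that length Tapbp shared 5.54%, Tap1 1.48% (with Tap2) and Tap2 1.44%, and B2m and Nlrc5 shared 0. Without a stated strand setting, reads of antisense genes cannot be told apart. A930015D03Rik, antisense to 29.4% of the H2-T22 exon length, had at most 11 counts in a library, and Gm19412, antisense to 24.9% of that of Tapbp, at most 15. Zbtb22 overlaps 4.11% of the Tapbp exon length on the same strand, where no strand setting could separate reads. It measured 17.9 to 22.1 scaled CPM. Gm11131, antisense to 19.1% of the exon length of H2-Q4, and Gm15821, antisense to 14.1% of that of Tap2, have no level here.

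The sum of the 23 listed heavy chain genes present in the tables is not moved by how reads are assigned among them, but it is by sharing with genes outside the list. Such genes held 4.18% of the 75-base and 13.8% of the 31-base stretches of H2-D1, and 10.8% and 25.0% of those of H2-T23. The sum went from 1806 ± 190 to 1589 ± 97.8 scaled CPM and was not called (log2 -0.18 ± 0.08, edgeR adjusted p = 0.116). The sum is mostly H2-D1, which made up 61.5%, 60.3% and 61.3% of heavy chain counts in controls and 67.5%, 67.5% and 65.1% in MNP samples. The share of H2-D1 was thus higher in each MNP sample than in any control. Without H2-D1, an alternative chosen after seeing the data, the remaining 22 genes summed to 703 ± 66.9 in controls and 528 ± 26.7 in MNP samples (log2 -0.41 ± 0.07, edgeR adjusted p = 0.00108).

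Of the 18 other heavy chain genes in the tables, 10 passed the filter, and 4 of these were called lower by edgeR, DESeq2 and limma-voom alike. Over all tested genes edgeR called 8.35% lower. By each of these tools 0 were called higher, and 0 were higher at an unadjusted p under 0.05 in edgeR. H2-T24 fell from 35.2 ± 7.42 to 18.1 ± 1.33 scaled CPM (log2 -0.96 ± 0.13), and H2-M3, which presents formylated bacterial peptides, from 12.4 ± 1.04 to 7.45 ± 1.14 (log2 -0.74 ± 0.14). H2-K2 fell from 6.65 ± 0.644 to 4.19 ± 0.916 (log2 -0.67 ± 0.19) and H2-Q5 from 1.29 ± 0.428 to 0.41 ± 0.111 (log2 -1.64 ± 0.46). H2-T10 (log2 -0.92 ± 0.34), H2-M2 (-0.73 ± 0.34), H2-T-ps (-0.53 ± 0.45), H2-Q9 (-0.31 ± 0.99), H2-Q6 (-0.20 ± 0.58) and H2-Q10 (1.14 ± 0.81) were not called. H2-Q10 had 49 counts in MNP 1 and 4 to 11 in the other 5 libraries. H2-Q9 had 0 counts in control 2 and in MNP 1 and 13 to 34 in the rest.

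Relative to B2m in the same library, a measure that no scaling between libraries touches, Nlrc5 stood at 7.10, 5.80 and 4.68 counts per 100 B2m counts in controls and at 3.72, 3.82 and 3.77 in MNP samples. H2-Q4, H2-T22 and Tap1 likewise had no overlap between the groups in this ratio. With 3 against 3 samples the smallest two-sided p that an exact permutation test can give is 0.1. These 4 genes reached it (0.225 after Benjamini-Hochberg adjustment over the 9 ratios), so none could pass 0.05. For H2-K1 the ratio was 66.9, 52.5 and 46.6 in controls and 53.6, 44.1 and 45.3 in MNP samples, which overlapped (exact permutation p = 0.3, adjusted 0.54). The ratios of H2-T23, Tapbp, H2-D1 and Tap2 overlapped as well, with mean log2 differences between -0.31 and 0.06. Without control 1, the lowest control for B2m, the mean log2 difference went from -0.31 to -0.044 for H2-T23, from -0.21 to -0.076 for Tapbp, from -0.20 to -0.060 for H2-K1, from 0.06 to 0.25 for H2-D1, from 0.043 to 0.32 for Tap2 and from -0.56 to -0.36 for Tap1, and for Nlrc5 from -0.61 to -0.47. The differences of H2-D1 and Tap2 were below 0 without control 3 (-0.077 and -0.14) and without MNP 1 (-0.061 and -0.099).

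**Figure D3:**
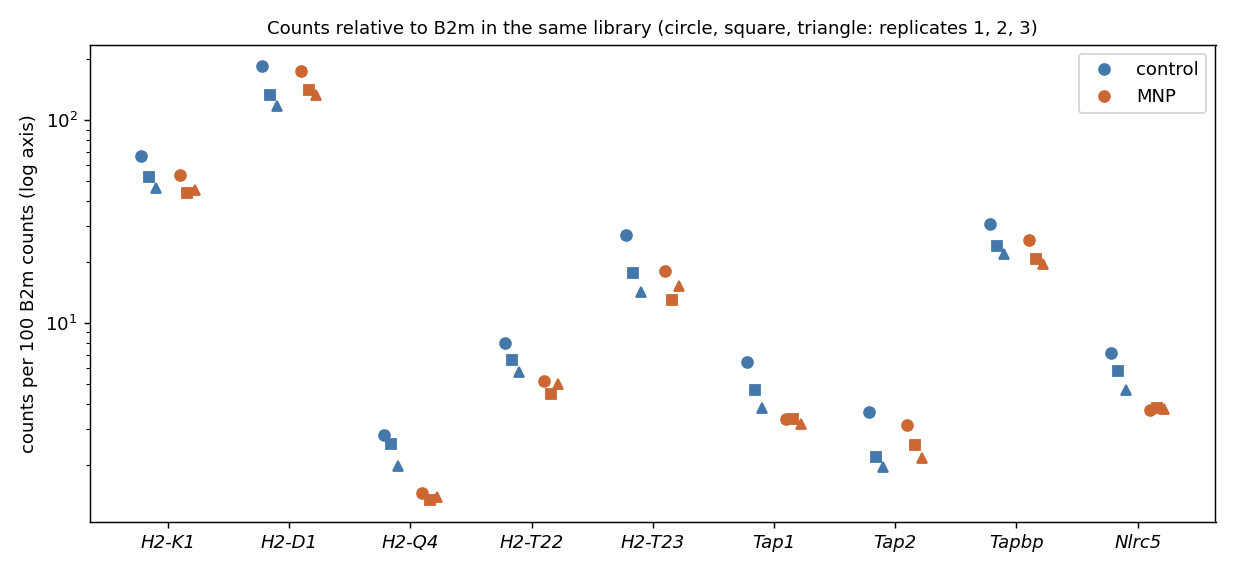
Counts of 9 genes per 100 B2m counts in the same library (log axis); symbols stand for replicates 1 to 3. Control and MNP values are separate for H2-Q4, H2-T22, Tap1 and Nlrc5 and overlap for the other 5 genes.

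Of the other steps of the pathway, most genes of the immunoproteasome, which cuts the peptides, were lower, whereas those of folding in the endoplasmic reticulum were mostly not called. Of 6 genes of the immunoproteasome and its activator, edgeR called 5 lower (median log2 fold change -0.36) and 0 higher, as did DESeq2 and limma-voom, with 1 higher at an unadjusted p under 0.05. The catalytic subunit genes Psmb9 and Psmb8 fell 1.54-fold and 1.28-fold, Psmb10 1.48-fold and the activator subunit gene Psme2 1.29-fold. Psmb9 starts next to Tap1 on the opposite strand, and its exons overlap 3.87% of the Tap1 exon length. Of 11 genes for folding, loading and trimming in the endoplasmic reticulum, edgeR, like limma-voom, called 2 higher (3 with DESeq2), with a median of 0.14, and each of these tools called 0 lower (1 in edgeR at an unadjusted p under 0.05). The disulfide isomerase gene Pdia3, part of the loading complex, rose 1.12-fold and Bcap31, an export receptor gene, 1.30-fold. Calr (calreticulin, log2 0.18 ± 0.07), the tapasin relative Tapbpl (-0.34 ± 0.13) and the trimming peptidase gene Erap1 (-0.05 ± 0.06) were not called. Of 6 cytosolic peptidase genes 2 were called higher, Npepps and Blmh, both 1.16-fold. Over all tested genes 8.35% were called lower and 9.11% higher, so counts of 2 in such short lists say little of the lists. With library totals alone, Bcap31 was still called higher, Pdia3, Npepps and Blmh were not called (edgeR adjusted p = 0.281, 0.194 and 0.205), and Tapbpl was called lower (0.0321).

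Among 17 genes of transcriptional control, 6 were lower and 2 higher (median -0.19), or 7 and 1 with library totals alone. Over all tested genes, with TMM, 8.35% were called lower and 9.11% higher. Irf1, which binds interferon response elements, fell from 66.4 ± 6.44 to 32.4 ± 2.52 scaled CPM (2.05-fold). Ciita, the relative of Nlrc5 that activates MHC class II genes, fell from 30.8 ± 5.53 to 9.74 ± 2.28 (3.16-fold) and Stat2 1.62-fold. The SXY-binding factor genes Rfx5 (log2 -0.19 ± 0.15), Rfxap (-0.23 ± 0.13) and Rfxank (-0.19 ± 0.16) were not called, and Nfya, of the Y box factor, rose 1.27-fold. Of 8 tested class I-like genes 2 fell, the neonatal Fc receptor gene Fcgrt (26.0 ± 0.364 to 11.9 ± 0.183, 2.20-fold) and the iron regulator gene Hfe (1.24-fold). In this list edgeR and limma-voom called 0 higher and DESeq2 1, and 1 was higher at an unadjusted p under 0.05 in edgeR, Raet1e (log2 0.90 ± 0.31, edgeR adjusted p = 0.0671), a ligand gene of the receptor NKG2D that was named after its values were seen.

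**Figure D4:**
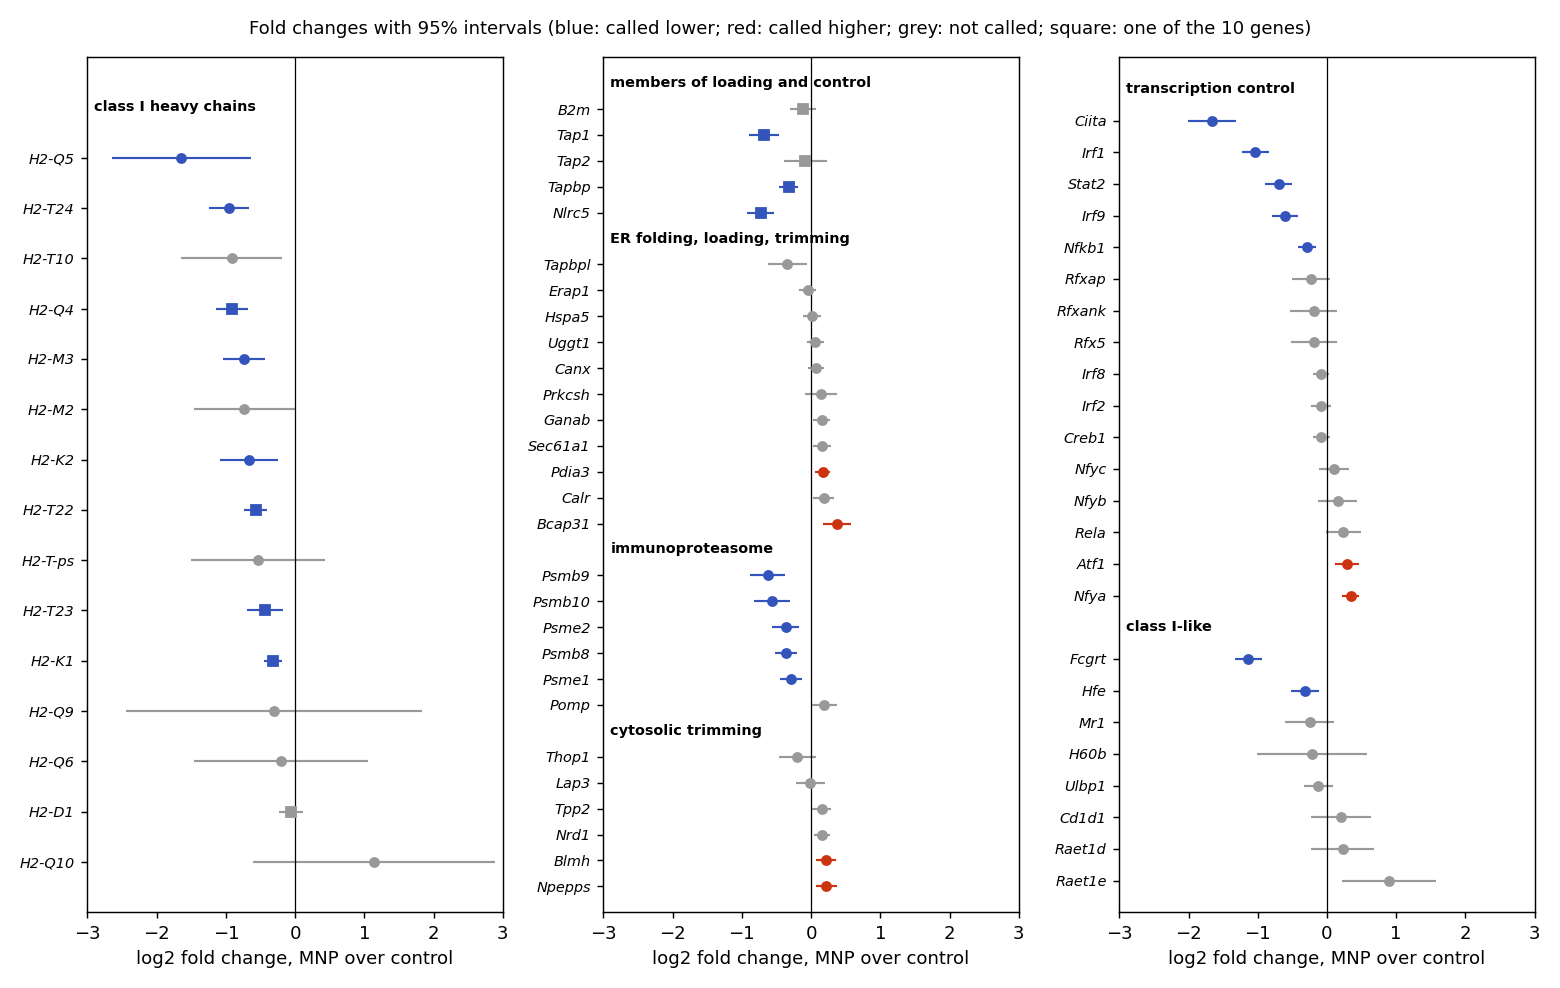
Log2 fold change (horizontal axis) with 95% interval for the tested heavy chain genes, the other 5 members, and genes of 5 pathway lists (1 gene of transcriptional control is not drawn); blue is called lower, red called higher, grey not called, squares are the 10 genes. Immunoproteasome genes other than Pomp and 8 heavy chain genes are blue, whereas no gene for folding and trimming in the endoplasmic reticulum is (with library totals alone Tapbpl was called lower).

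Markers of other cells also moved between the groups. Of 7 tested dendritic cell markers 3 were called lower, beside 8.35% of all tested genes. The sum of all 9 such markers was 8.78 to 12.4 scaled CPM in controls and 3.54 to 6.38 in MNP samples, and none of the 9 was at 0 in all libraries. Of 7 tested neutrophil and precursor markers 4 were called lower, with the sum of 8 at 181 to 269 and 132 to 152. The defining neutrophil gene Ly6g had 0 counts in 4 of 6 libraries. Of 8 macrophage markers edgeR called 5 lower (4 with RLE scaling) and 0 higher, while DESeq2, limma-voom and RLE scaling each called 1 higher. Cd68 had a log2 fold change of 0.25 ± 0.08 (edgeR adjusted p = 0.0507). The sum of the 8 was 18840 to 19562 in controls and 16704 to 17732 in MNP samples. Most of it was Lyz2, with a mean of 14779 in controls and 13152 in MNP samples. Markers of B cells, T or NK cells, stromal cells and erythroid cells each summed to at most 2.26 scaled CPM in any library, and Cd3e and Ncr1 were at 0 in all 6. The part of these other cells in the class I decreases was not tested.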

How the data were processed

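Total RNA of 6 samples was sequenced after CORALL RNA-seq V2 library preparation, per the labels' protocols. The authors deposited whole-number counts per gene symbol, 1 table per library. The submitters' processing notes list GATK, Salmon, STAR, fastp and the mouse build GRCm39, while their roles, their versions, the annotation and the strand setting were not given. Groups and replicate numbers came from the titles.

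The test was that of edgeR 4.0.16, run in R 4.3.3 on the counts (TMM factors, default expression filter, quasi-likelihood F test, Benjamini-Hochberg adjustment over 12893 genes). SE is the size of the log2 fold change divided by the root of F. Steps were tested on simulated data. Alternatives were RLE, upper-quartile and total scaling, no filter, a filter of 1 CPM in all samples of a group, DESeq2 1.42.0, limma-voom (limma 3.58.1), a replicate block, an adjusted p under 0.01, and leaving out each library. Ratios to B2m were compared with exact permutation tests (scipy 1.17.1).

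Named genes were the 10 members, all tested heavy chain genes, up to 4 called genes with the smallest p of each other pathway list, and the 5 genes most like the members in pattern; Calr, Tapbpl, Erap1, Raet1e, Rfx5, Rfxap and Rfxank were named after their values were seen, for their roles. A gene that this rule names is not reported here. The members and lists were chosen with earlier results of these data known. Within groups, pairs of libraries differed by a chi-square per degree of freedom of 6.65 to 17.6, more than counting noise alone would give. This cannot tell repeats from the same RNA or culture from samples of separate ones. Exon lengths, overlaps and shared 75-base stretches came from GENCODE M21, an older build, by symbol.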

Additional observations from a re-analysis of the deposited data

How the results depend on the processing

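Nlrc5, Tap1, Tapbp, H2-K1, H2-Q4 and H2-T22 kept their direction and their call under all 14 alternative fits of single genes, and H2-T23 lost its call in 3 of them. The members called lower numbered 7, or 6 with DESeq2 and with an adjusted p under 0.01, and 6 to 7 when each library was left out in turn. With a library left out, the log2 fold change of H2-D1, never called, ran from -0.11 (without MNP 1) to 0.048 (without control 1), and that of Tap2, never called, from -0.17 (without control 2) to 0.13 (without control 1), with 0.0093 without MNP 3. That of B2m, never called, ran from -0.20 (without control 1, adjusted p = 0.0634) to -0.011 (without control 3). The genes changed over the whole table numbered 2250, 1272 with an adjusted p under 0.01, and 1471 (without MNP 2) to 2245 (without control 1) with a library left out. The heavy chain sum (log2 -0.18) was called with library totals alone (-0.27, adjusted p = 0.0209) and, as an alternative added later, without H2-D1 (-0.41), and ran from -0.23 (without MNP 1) to -0.09 (without control 1) with a library left out. With the replicate block the sum was -0.18 and called (adjusted p = 0.0122), the members called lower were 7 and the genes changed 2686. The labels do not say whether same-numbered samples were paired. Their deviations from the group means correlated at 0.09, 0.03 and -0.02 over 12893 genes, and not every sample correlated best with its own number. With the block the SE went from 0.080 to 0.045 for H2-D1 and from 0.121 to 0.079 for H2-T23. For H2-Q4 (0.105 to 0.108) and Nlrc5 (0.090 to 0.091) it rose slightly. Whether the samples were paired was not tested. Measured against 5 housekeeping genes in place of B2m, the log2 difference was -0.57 for H2-K1, -0.58 for Tapbp, -0.31 for H2-D1 and -0.98 for Nlrc5. Only the reference differs between this measure and that against B2m, so the difference of each gene moved by the same amount. That amount is set by the references alone. Why the references differ was not tested. Counting noise limits the heavy chain genes near 1 scaled CPM, such as H2-Q6, H2-Q9 and H2-Q5, which was called, more than the 10 members.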

Other observations

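Of 3 tested receptor genes of the immunoglobulin-like family that includes receptors of class I, 2 were called higher, beside 9.11% of all tested genes. Lilrb4a rose from 745 ± 31.3 to 1183 ± 32.3 scaled CPM (1.59-fold, edgeR adjusted p = 1.98e-06) and its close relative Lilrb4b from 352 ± 10.4 to 560 ± 33.8 (1.59-fold, edgeR adjusted p = 3.51e-06). The sequences of these 2 genes are alike, so their separate counts are uncertain. Pirb, a receptor of class I molecules, was not called (385 and 411 scaled CPM, log2 0.10 ± 0.06). Among 6 genes linked to cross-presentation 1 rose and 1 fell, beside 9.11% and 8.35% of all tested genes, so the count says nothing particular of the list: Wdfy4, required for it in dendritic cells, went from 117 ± 16.4 to 157 ± 6.61 (1.34-fold) and the oxidase subunit gene Cybb from 2158 ± 93.0 to 1632 ± 72.7 (1.32-fold lower).

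The genes whose values across the 6 libraries lay closest to the median pattern of the 10 members were Sdc1, Lpin1, Zbtb40, Ralgds and Zfyve9, out of 9532 genes with a mean of at least 5 scaled CPM. Their root mean square difference from that pattern was 0.0351 to 0.0444 on the log2 scale, and their log2 fold changes ran from -0.42 to -0.34. The libraries are shared by all genes, so this closeness is a description.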
